A study of Mus musculus with 12 samples.

Results

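Cytotoxic lymphocytes kill target cells with the contents of specialised granules or with a death ligand at their surface, and the genes described here code for that machinery. They are the granzymes Gzma, Gzmb and Gzmk, the pore former Prf1, the granule proteins Nkg7, Cst7, Ctsw and Srgn, the death ligand Fasl, and Eomes, a transcription factor of cytotoxic lymphocytes. They were taken from the count table by matching Ensembl gene IDs to these symbols, which gave 10 genes of the 55401 in the table. All 10 had counts in every tumor and passed the filter on low counts, as did 20818 genes in all.

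The RNA came from mouse tumors grown under the skin for 21 days from 125000 TC2Ras cells, a Ras-transformed mouse prostate cancer line. In the Control group (n = 3 tumors) the mice drank water without added inorganic arsenic (iAs, 0 ppb) and the implant held cancer cells only. The ASC group (n = 3) received an implant in which ASC-GFP cells, green-fluorescent adipose-derived stromal cells from male transgenic mice, made up 1% of the cells. The As300 group (n = 3) drank water with 300 ppb iAs and received no ASC, and the ASC_As300 group (n = 3) had both. All mice had eaten chow low in arsenic and drunk purified water before implantation, and each sample combined the tumors of both flanks of a mouse. How many ASC-GFP cells remained in the tumors was not analysed here. The strain, sex and age of the host mice are not given in the sources used here. The labels name adipose-derived stromal cells as the cell type of each sample, while the protocols describe whole tumors, and the values are read here as tumor values.

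A cytotoxic T cell or natural killer (NK) cell that recognises a target releases perforin and granzymes into the contact zone. Perforin opens pores in the target membrane, granzymes enter and cleave proteins that set off apoptosis, and serglycin, a proteoglycan, holds these cargo proteins in the granule until release. Fas ligand acts on a separate route, by binding the death receptor Fas on the target, and Eomes and T-bet direct the expression of the killing genes in effector lymphocytes.

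Total counts ran from 39157647 to 55168642 per tumor. Levels are given as counts per 1000000 counts after TMM scaling of library sizes (CPM), and each tumor is named by its group and replicate number. The library Control 1 stood apart from the other tumors. Its summed B cell markers were at 201 CPM, against 2.42 to 12.1 CPM in the other 11 tumors, and its summed T cell markers, at 88.2 CPM, were the highest of the 12. Muscle genes summed to 1304 CPM in Control 2 and 1317 CPM in As300 1, against 0.951 to 263 CPM elsewhere. Among epithelial markers, Epcam was at 0.139 to 1.34 CPM and Krt8 at 24.1 to 337 CPM. The pan-leukocyte gene Ptprc was at 26.6 to 101 CPM, the T cell receptor subunit Cd3e at 0.325 to 8.20 CPM and the NK receptor Ncr1 at 0.250 to 2.39 CPM, so that no tumor lacked counts of the cells known to make these proteins.

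Across the study the killing genes were higher in tumors that had received ASC, at both iAs levels. The comparison of the 6 tumors with ASC against the 6 without (the ASC effect, the mean of ASC and ASC_As300 minus the mean of Control and As300) gave a positive log2 fold change for 10 of 10 genes. Gzmb, Nkg7, Cst7 and Fasl rose, by an adjusted p below 0.05 and a fold change of at least 1.5 in edgeR's quasi-likelihood test, where 1.36% of all genes tested rose. The median log2 fold change of the 10 genes was 1.20, against 0.00 for all genes tested. In whole tumors, a larger number of cytotoxic cells and more RNA of these genes per cell cannot be told apart.

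**Figure D1:**
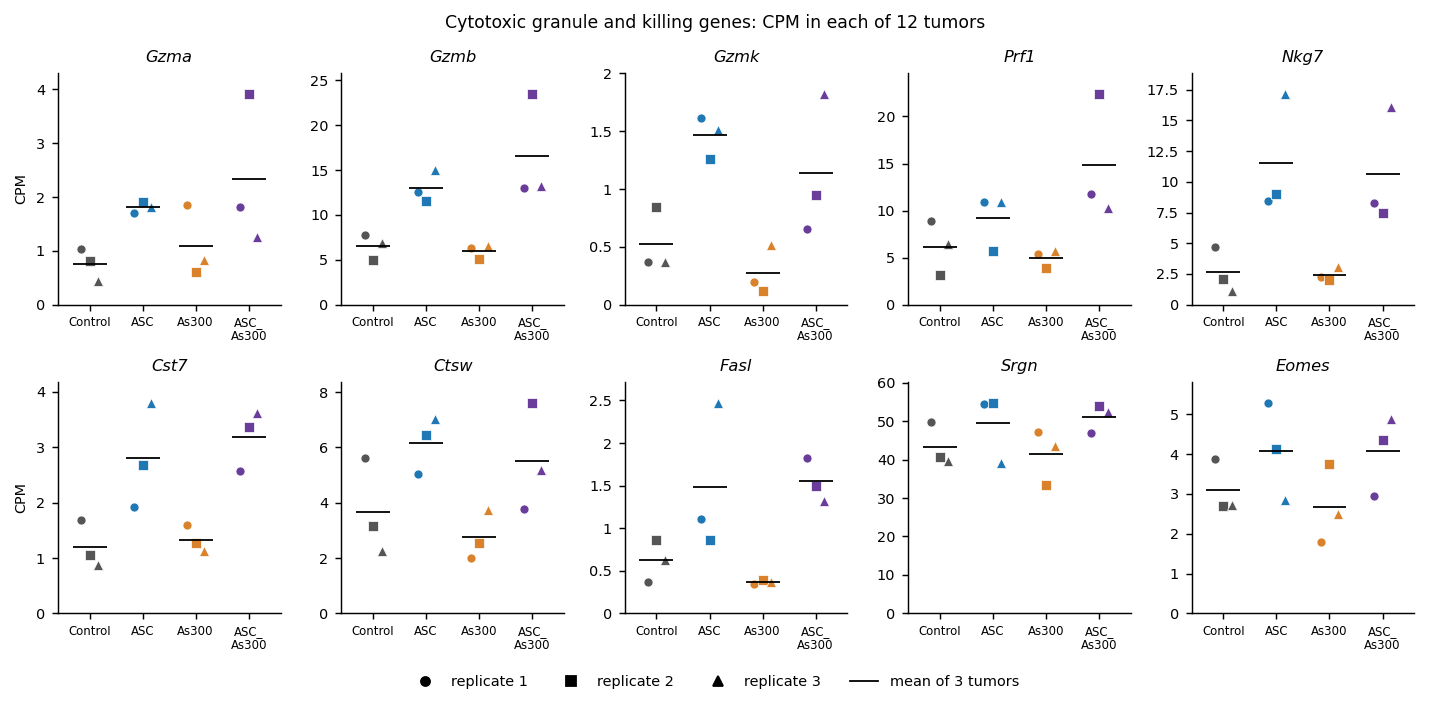
Level of each of the 10 genes in each tumor, in CPM (TMM-scaled) on a linear axis from 0, by group (3 tumors each), with a line at the group mean. Gzmb, Nkg7 and Cst7 lie higher in every tumor with ASC than in any tumor without, while Srgn and Eomes overlap between the groups.

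Granzyme B (Gzmb, ENSMUSG00000015437, chr14:56258838-56262260 on the minus strand of GRCm38) is a serine protease that cleaves caspases and Bid in the target cell. Gzmb was at 7.71, 5.03 and 6.88 CPM in the Control tumors 1 to 3, 12.6, 11.6 and 15.0 CPM in ASC, 6.33, 5.07 and 6.52 CPM in As300, and 13.1, 23.4 and 13.2 CPM in ASC_As300. All 6 tumors with ASC lay above all 6 without, with group means of 6.54 ± 1.37 CPM in Control, 13.0 ± 1.75 CPM in ASC, 5.97 ± 0.786 CPM in As300 and 16.6 ± 5.96 CPM in ASC_As300 (SD, n = 3). The ASC effect on Gzmb was a log2 fold change of 1.23 ± 0.17 (SE), a fold of 2.35 (adjusted p = 0.0016, edgeR), rank 132 of the 20818 genes by p. Gzmb was the only one of the 10 genes that rose within a pairwise comparison, at 1.34 ± 0.25 in ASC_As300 against Control (adjusted p = 0.0219, edgeR) and 1.47 ± 0.25 in ASC_As300 against As300 (adjusted p = 0.0120, edgeR). The first of these was not called without Control 2, Control 3 or ASC_As300 2 (adjusted p = 0.0766 to 0.0940, edgeR), nor the second without As300 2 (adjusted p = 0.0820, edgeR).

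Granzyme A (Gzma, ENSMUSG00000023132, chr13:113093825-113100981, minus strand) is a tryptase of the same granules. Gzma was at 1.03, 0.806 and 0.434 CPM in Control, 1.70, 1.90 and 1.82 CPM in ASC, 1.85, 0.613 and 0.830 CPM in As300, and 1.82, 3.91 and 1.27 CPM in ASC_As300. The 3 ASC tumors lay above the 3 Control tumors, while As300 1 lay among the tumors with ASC, so that the 6 and 6 tumors overlapped. For Gzma the ASC effect was 1.17 ± 0.36 on the log2 scale and did not pass (adjusted p = 0.176, edgeR).

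Granzyme K (Gzmk, ENSMUSG00000042385, chr13:113171608-113225908, minus strand) is a further tryptase, found mainly in memory-type CD8 T cells. Gzmk was at 0.372, 0.844 and 0.369 CPM in Control, 1.62, 1.26 and 1.52 CPM in ASC, 0.200, 0.123 and 0.512 CPM in As300, and 0.651, 0.948 and 1.82 CPM in ASC_As300. Control 2 lay above ASC_As300 1, the only crossing between the tumors with and without ASC. These levels rest on 6 to 92 counts per tumor, the fewest of the 10 genes. Its ASC effect was 1.74 ± 0.41 and missed the threshold (adjusted p = 0.0536, edgeR). Without Control 2, As300 3 or ASC_As300 1 it passed, at 1.88 to 2.13 (adjusted p = 0.0195 to 0.0487, edgeR).

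Perforin (Prf1, ENSMUSG00000037202, chr10:61297833-61304680, plus strand) forms the pores through which granzymes enter. Prf1 was at 8.85, 3.17 and 6.42 CPM in Control, 10.9, 5.74 and 10.95 CPM in ASC, 5.43, 3.86 and 5.70 CPM in As300, and 11.8, 22.4 and 10.3 CPM in ASC_As300. The 3 ASC_As300 tumors lay above both groups without ASC, whereas ASC 2 lay within the range of Control. With an ASC effect of 1.08 ± 0.28, Prf1 did not pass (adjusted p = 0.0845, edgeR), although it did without Control 1 (1.25, adjusted p = 0.0350, edgeR).

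Nkg7 (ENSMUSG00000004612, chr7:43437073-43438249, plus strand) is a membrane protein of cytotoxic granules needed for their release. Nkg7 was at 4.71, 2.13 and 1.09 CPM in Control, 8.46, 9.03 and 17.1 CPM in ASC, 2.25, 2.04 and 3.07 CPM in As300, and 8.25, 7.49 and 16.1 CPM in ASC_As300. The lowest tumor with ASC, at 7.49 CPM, stood above the highest without, Control 1 at 4.71 CPM, and the ratio of the highest tumor to the lowest, 15.8, was the widest of the 10 genes. The ASC effect on Nkg7 was the largest of the 10, at 2.12 ± 0.34, a fold of 4.34 (adjusted p = 0.00483, edgeR). Within single comparisons Nkg7 reached 2.13 in ASC against Control (adjusted p = 0.0730, edgeR), 2.0 in ASC_As300 against Control (adjusted p = 0.0811, edgeR) and 2.11 in ASC_As300 against As300 (adjusted p = 0.0795, edgeR). Each of these 3 passed once Control 1 was left out (adjusted p = 0.0116, 0.0153 and 0.0202, edgeR). The first also passed without ASC 1 (adjusted p = 0.0448) and the last without Control 3 (adjusted p = 0.0325, edgeR).

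Cystatin F (Cst7, ENSMUSG00000068129, chr2:150570415-150578944, plus strand) inhibits the cathepsins that activate granule proteases. Cst7 was at 1.70, 1.06 and 0.868 CPM in Control, 1.92, 2.68 and 3.80 CPM in ASC, 1.60, 1.27 and 1.13 CPM in As300, and 2.57, 3.36 and 3.62 CPM in ASC_As300. All 6 tumors with ASC lay above all 6 without, by the narrow margin between Control 1 and ASC 1. The ASC effect on Cst7 was 1.23 ± 0.24, a fold of 2.35 (adjusted p = 0.0169, edgeR). Leaving out Control 2, Control 3, As300 2, As300 3, ASC_As300 2 or ASC_As300 3 moved its adjusted p to between 0.0501 and 0.0568 (edgeR), just past the threshold, with a log2 fold change of 1.14 to 1.22.

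Cathepsin W (Ctsw, ENSMUSG00000024910, chr19:5465043-5468507, minus strand) is a papain-family cathepsin of T and NK cells. Ctsw was at 5.62, 3.17 and 2.26 CPM in Control, 5.04, 6.43 and 7.04 CPM in ASC, 2.0, 2.54 and 3.73 CPM in As300, and 3.78, 7.60 and 5.18 CPM in ASC_As300. Control 1 lay among the tumors with ASC, and the other 5 tumors without ASC lay below all 6 with it. Its ASC effect was 0.87 ± 0.26 (adjusted p = 0.148, edgeR) and passed without Control 1 (1.09, adjusted p = 0.0295, edgeR). Exons of Ctsw and of Fibp on the opposite strand share 9 bases, and whether the counting used strand is not given in the sources used here.

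Serglycin (Srgn, ENSMUSG00000020077, chr10:62493833-62527451, minus strand) is also made by mast cells, macrophages and other leukocytes. Srgn was at 49.8, 40.8 and 39.6 CPM in Control, 54.3, 54.7 and 39.2 CPM in ASC, 47.1, 33.4 and 43.6 CPM in As300, and 46.9, 53.9 and 52.5 CPM in ASC_As300. The groups overlapped, with ASC 3 below all 3 Control tumors, and the highest tumor was 1.64 times the lowest, the narrowest span of the 10 genes. In Srgn the ASC effect was 0.25 ± 0.11 (adjusted p = 0.435, edgeR), with an unadjusted 95% interval from 0.01 to 0.48. Mast cell markers, 7 of 7 higher in the ASC effect with a median of 0.63 and 0 called (3 at an unadjusted p below 0.05, edgeR), summed to 16.8 to 23.0 CPM in Control, 28.8 to 41.8 CPM in ASC, 18.6 to 31.5 CPM in As300 and 18.2 to 55.6 CPM in ASC_As300. Macrophage markers, 6 of 6 higher in the ASC effect with a median of 0.165 and 0 called, summed to 981 to 1223 CPM in Control and 982 to 1566 CPM in ASC. They summed to 1166 to 1263 CPM in As300 and 1100 to 1492 CPM in ASC_As300. The part of mast cells and of macrophages in Srgn was not tested.

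Fas ligand (Fasl, ENSMUSG00000000817, chr1:161780689-161788495, minus strand) is the death ligand of the list. Fasl was at 0.372, 0.864 and 0.629 CPM in Control, 1.11, 0.858 and 2.47 CPM in ASC, 0.350, 0.388 and 0.371 CPM in As300, and 1.82, 1.5 and 1.33 CPM in ASC_As300. The 3 As300 tumors lay close together near the bottom, and ASC 2 fell just under Control 2, the only crossing between tumors with and without ASC. The ASC effect on Fasl was 1.65 ± 0.32, a fold of 3.15 (adjusted p = 0.0171, edgeR), on 14 to 106 counts per tumor. It passed in each of the 12 fits that left out 1 tumor, as did that of Gzmb and that of Nkg7. Fasl in ASC_As300 against As300 was at 2.06 (adjusted p = 0.0689, edgeR), and passed without Control 1 or without ASC 3 (adjusted p = 0.0391 to 0.0410, edgeR).

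Eomes (ENSMUSG00000032446, chr9:118478212-118486132, plus strand) was at 3.89, 2.69 and 2.73 CPM in Control, 5.28, 4.13 and 2.84 CPM in ASC, 1.80, 3.76 and 2.49 CPM in As300, and 2.96, 4.37 and 4.89 CPM in ASC_As300. The ranges of all 4 groups overlapped. In Eomes the ASC effect was 0.50 ± 0.23 (adjusted p = 0.467, edgeR), with a 95% interval from -0.01 to 1.00. An antisense gene, Gm33460, shares 118 exon bases with Eomes, and without known strand the reads of both cannot be told apart.

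**Figure D2:**
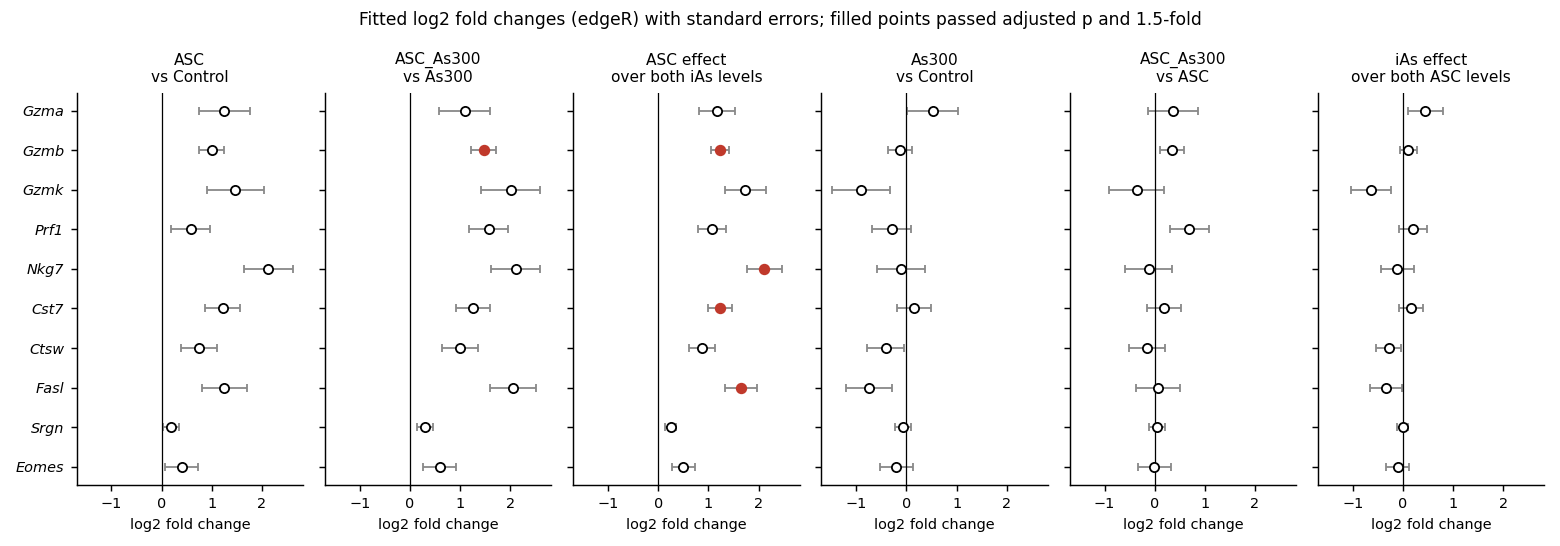
Fitted log2 fold change (points) with its standard error (bars) for the 10 genes in 6 comparisons, with filled red points for genes past both thresholds. The ASC effect has 4 red points (Gzmb, Nkg7, Cst7 and Fasl), while As300 against Control and the iAs effect have none.

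The sequences just before the start sites of the 4 genes that rose are shown to let a reader see what stands there in the genome. They come from RefSeq on GRCm38.p6 and cover chr14:56262335-56262584 (Gzmb, minus strand), chr7:43436888-43437072 (Nkg7, plus), chr2:150570165-150570414 (Cst7, plus) and chr1:161788496-161788745 (Fasl, minus), read 5′ to 3′ along each gene. Capitals mark matches on either strand to letters of 6 motifs, namely AP-1 (TGANTCA), CRE (ACGTCA), RUNX (TGTGGTT), ETS (GGAAGT), T-box (GGTGTGA) and GAS (TTCNNNGAA).
Gzmb: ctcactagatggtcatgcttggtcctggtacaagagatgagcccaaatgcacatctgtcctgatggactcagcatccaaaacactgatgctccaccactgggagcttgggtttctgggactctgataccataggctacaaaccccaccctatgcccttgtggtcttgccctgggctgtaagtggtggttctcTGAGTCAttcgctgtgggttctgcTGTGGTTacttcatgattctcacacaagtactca
Nkg7: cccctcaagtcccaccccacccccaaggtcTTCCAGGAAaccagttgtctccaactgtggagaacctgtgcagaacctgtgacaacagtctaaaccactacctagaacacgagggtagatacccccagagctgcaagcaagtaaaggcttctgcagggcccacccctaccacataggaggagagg
Cst7: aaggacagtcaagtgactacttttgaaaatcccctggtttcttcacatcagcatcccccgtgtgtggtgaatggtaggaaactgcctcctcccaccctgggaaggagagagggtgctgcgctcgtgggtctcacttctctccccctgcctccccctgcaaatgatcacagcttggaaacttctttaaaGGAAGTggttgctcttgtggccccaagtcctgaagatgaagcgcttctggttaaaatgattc
Fasl: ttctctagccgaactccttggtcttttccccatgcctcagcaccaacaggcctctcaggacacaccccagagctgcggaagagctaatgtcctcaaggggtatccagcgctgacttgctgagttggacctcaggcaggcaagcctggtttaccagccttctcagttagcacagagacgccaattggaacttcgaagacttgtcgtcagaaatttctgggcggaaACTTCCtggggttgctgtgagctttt

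The Gzmb stretch held an AP-1 match that begins 58 bases before the RefSeq start and a RUNX match 34 bases before it. Nkg7 held a GAS match, Cst7 an ETS match on the plus strand of the gene, and Fasl an ETS match on its minus strand. Of 32851 RefSeq promoter windows cut to the same 250 bases, 6.75% held the AP-1 letters, 4.4% RUNX and 19.7% ETS, and of windows cut to the 185 bases shown for Nkg7, 5.38% held GAS. In these 4 stretches no match overlapped a match to another motif. A match here is a description of the letters, and the data hold no measure of binding. The promoter table used here matched 9 of the 10 genes, all but Ctsw.

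The pairwise comparisons within a single iAs level asked whether ASC changed these genes without iAs and with it. In ASC against Control, edgeR called 0 of 10 genes, against 0.706% of all genes called up. At an unadjusted p below 0.05, 6 of the 10 were higher (8.55% of all genes), all 10 fold changes were positive, and their median was 1.1. DESeq2 called 3 of the 8 to which it gave an adjusted p, namely Gzmb, Nkg7 and Cst7, and called 2.64% of all such genes up. Gzma, Gzmb, Gzmk, Nkg7 and Cst7 did not overlap between the 3 ASC and 3 Control tumors, as held for 9.94% of all genes in that direction.

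In ASC_As300 against Control, Gzmb alone was called (0.783% of all genes were called up), 6 of 10 were higher at an unadjusted p below 0.05 (8.7%), and the median log2 fold change was 1.29. The tumors of these groups did not overlap for Gzma, Gzmb, Prf1, Nkg7, Cst7 and Fasl (13.5% of all genes). In ASC_As300 against As300, Gzmb was again the gene called (0.793% of all genes), 7 of 10 were higher at an unadjusted p below 0.05 (6.33%), and the median was 1.36. There the groups did not overlap for Gzmb, Gzmk, Prf1, Nkg7, Cst7, Ctsw and Fasl (11.3% of all genes). DESeq2 called 5 of the 10 in each of these 2 comparisons, and 2.05% of all genes up in the first and 1.4% in the second. Comparisons with Control share its 3 tumors, and comparisons with ASC_As300 share that group, so their values are not independent.

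Over all 6 and 6 tumors, 9 of 10 genes had an unadjusted p below 0.05 for the ASC effect (6.93% of all genes in that direction), with Eomes the exception. Gzmb, Nkg7 and Cst7 did not overlap between the 6 tumors with and the 6 without ASC, against 1.68% of all genes. DESeq2 called Gzmk, Prf1 and Ctsw as well, 7 of 10 in all, against 1.74% of all genes up.

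The iAs comparisons asked whether arsenic in drinking water changed these genes. In As300 against Control, edgeR called 0 of 10, while 0.701% of all genes were called up and 0.355% down. None of the 10 had an unadjusted p below 0.05, as 11.2% of all genes had with a higher and 13.0% with a lower value. DESeq2 called 0 of the 10, while it called 495 up and 321 down of the 16084 genes to which it gave an adjusted p. Fold changes were negative for 8 of the 10, with a median of -0.17, and for each of the 10 the As300 and Control tumors overlapped. Of all genes, 14.5% did not overlap with As300 higher and 15.4% with As300 lower. The lowest was Gzmk, at -0.91 (95% interval -2.17 to 0.36), followed by Fasl, at -0.75 (-1.74 to 0.25).

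In ASC_As300 against ASC, edgeR called 0 of 10 and 0.0% of all genes. None of the 10 had an unadjusted p below 0.05 (1.47% of all genes had with a higher and 1.74% with a lower value). DESeq2 called 0 of 10 there, and 4 up and 7 down of 31174 genes with an adjusted p. The fold change of Prf1 there was 0.69 (95% interval -0.15 to 1.53). For the iAs effect over both ASC levels, edgeR called 0 of 10 and 0.0% of all genes. None of the 10 was at an unadjusted p below 0.05 (7.51% of all genes higher, 8.46% lower). DESeq2 called 0 of the 9 to which it gave an adjusted p, and 30 up and 84 down of 14779 such genes. The iAs effect ran from -0.63 for Gzmk (95% interval -1.5 to 0.24) to 0.45 for Gzma (-0.33 to 1.22), with a median of -0.06. Apart from those of Gzmb and Srgn, the intervals of the iAs effect leave room for changes of more than 1.5-fold. This holds for genes of higher count too, such as Prf1 (-0.40 to 0.79) and Nkg7 (-0.83 to 0.61).

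The interaction term tests whether the effect of ASC differed between 0 and 300 ppb iAs. For it, edgeR called 0 of 10 and 0.0% of all genes. DESeq2 called 0 of 10, and 29 up and 145 down of 16735 genes with an adjusted p. None of the 10 had an unadjusted p below 0.05 in edgeR (7.08% of all genes higher, 6.55% lower). The interaction fold changes were positive for 8 of 10, with a median of 0.23. Prf1 had the largest, at 0.98 (95% interval -0.21 to 2.18, adjusted p = 0.443, edgeR), followed by Fasl at 0.81, Gzmk at 0.54 and Gzmb at 0.48. A different ASC effect at 300 ppb was thus not detected for these genes at 3 tumors per group.

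**Figure D3:**
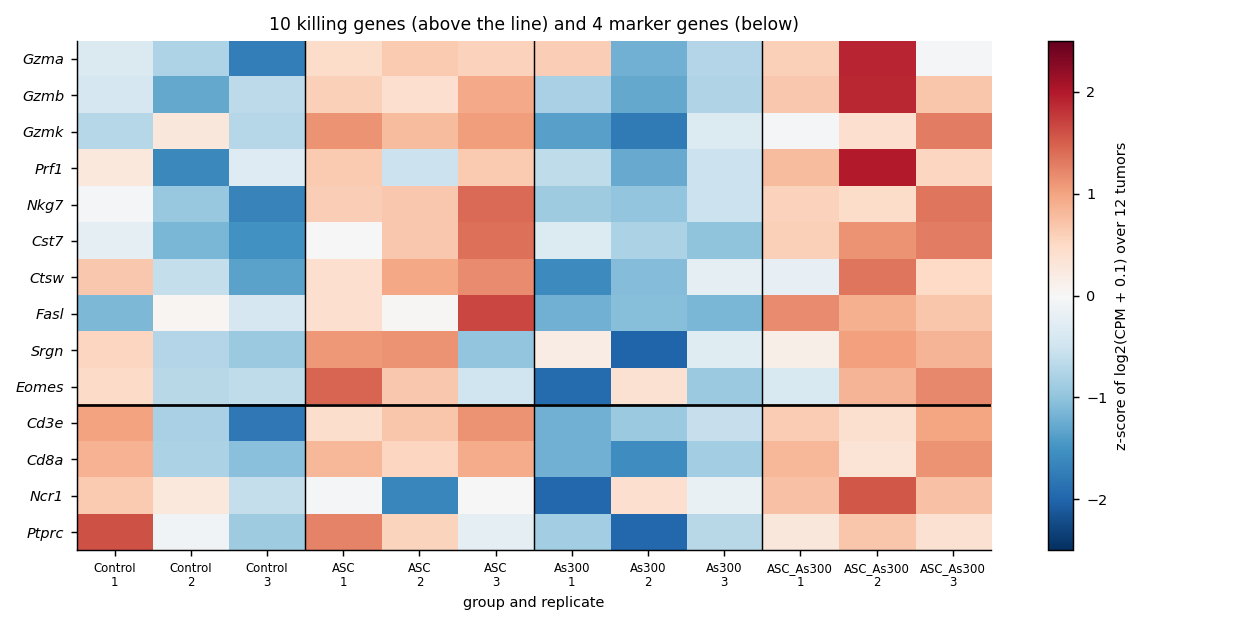
Standardised level (z score of log2(CPM + 0.1) across the 12 tumors) of the 10 genes and of Cd3e, Cd8a, Ncr1 and Ptprc, with 1 column per tumor. ASC_As300 2 is the highest tumor for Gzma, Gzmb, Prf1 and Ctsw, and ASC 3 for Nkg7, Cst7 and Fasl.

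The tumors with the highest values were not the same for all genes. ASC_As300 2 was the highest of the 12 for Gzma, Gzmb, Prf1 and Ctsw, with Prf1 at 22.4 CPM against 11.8 CPM in the next tumor, ASC_As300 1. ASC 3 was the highest for Nkg7, Cst7 and Fasl. In Nkg7, ASC_As300 2 was the lowest of the 6 tumors with ASC, at 7.49 CPM against 8.25 CPM in ASC_As300 1 and 16.1 CPM in ASC_As300 3. The summed T cell markers of ASC_As300 2, at 46.0 CPM, were also the lowest of these 6 tumors. So were its summed NK cell markers, at 38.9 CPM, although its Ncr1, at 2.39 CPM, was the highest of the 12. Its summed mast cell markers, at 55.6 CPM, were the highest of the 12 as well. The part of these cells in the values of ASC_As300 2 was not tested.

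Markers of T and NK cells, which make these proteins, were read in the same tumors. Summed T cell markers were at 88.2, 17.6 and 15.3 CPM in Control, 54.1, 57.8 and 71.2 CPM in ASC, 14.6, 13.9 and 20.0 CPM in As300, and 51.8, 46.0 and 72.4 CPM in ASC_As300. Of 10 T cell markers, 9 were higher in the ASC effect, with a median of 1.28, and 1 passed, Cd8a at 2.20 (adjusted p = 0.0381, edgeR). That call for Cd8a was lost in 10 of the 12 fits that left out 1 tumor, all but those without Control 1 and without ASC_As300 2 (adjusted p = 0.0525 to 0.109, edgeR). Without Control 1 the value of Cd8a was 3.04 (adjusted p = 6.2e-05, edgeR). Summed NK cell markers were at 39.7 to 47.9 CPM in Control, 39.1 to 49.8 CPM in ASC, 34.3 to 37.4 CPM in As300, and 38.9 to 50.4 CPM in ASC_As300. Most of that sum was Klra4, at 25.8 to 37.8 CPM, and Itga2, at 3.17 to 9.72 CPM, while Ncr1, Klrb1c, Klre1 and Klra8 lay between 0.175 and 2.52 CPM. Of 6 NK markers, Klre1 passed, at 1.33 (adjusted p = 0.0366, edgeR), and the median of the 6 was 0.17. The call for Klre1 was lost in 8 of the 12 fits, those without Control 1, Control 3, ASC 2, ASC 3, As300 1, As300 2, ASC_As300 2 or ASC_As300 3 (adjusted p = 0.0608 to 0.109, edgeR). No marker of either list was at 0 in all tumors, and the part of these cells in the rise of the killing genes was not tested. Among markers of other cell types, the epithelial marker Krt8 fell in the ASC effect, at -2.03 (adjusted p = 0.00632, edgeR). Tubb3 rose, at 1.18 (adjusted p = 0.000248, edgeR), while 3 of the 4 neuronal markers listed with it were lower (median of the 4, -0.26). The part of these genes was not tested either.

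**Figure D4:**
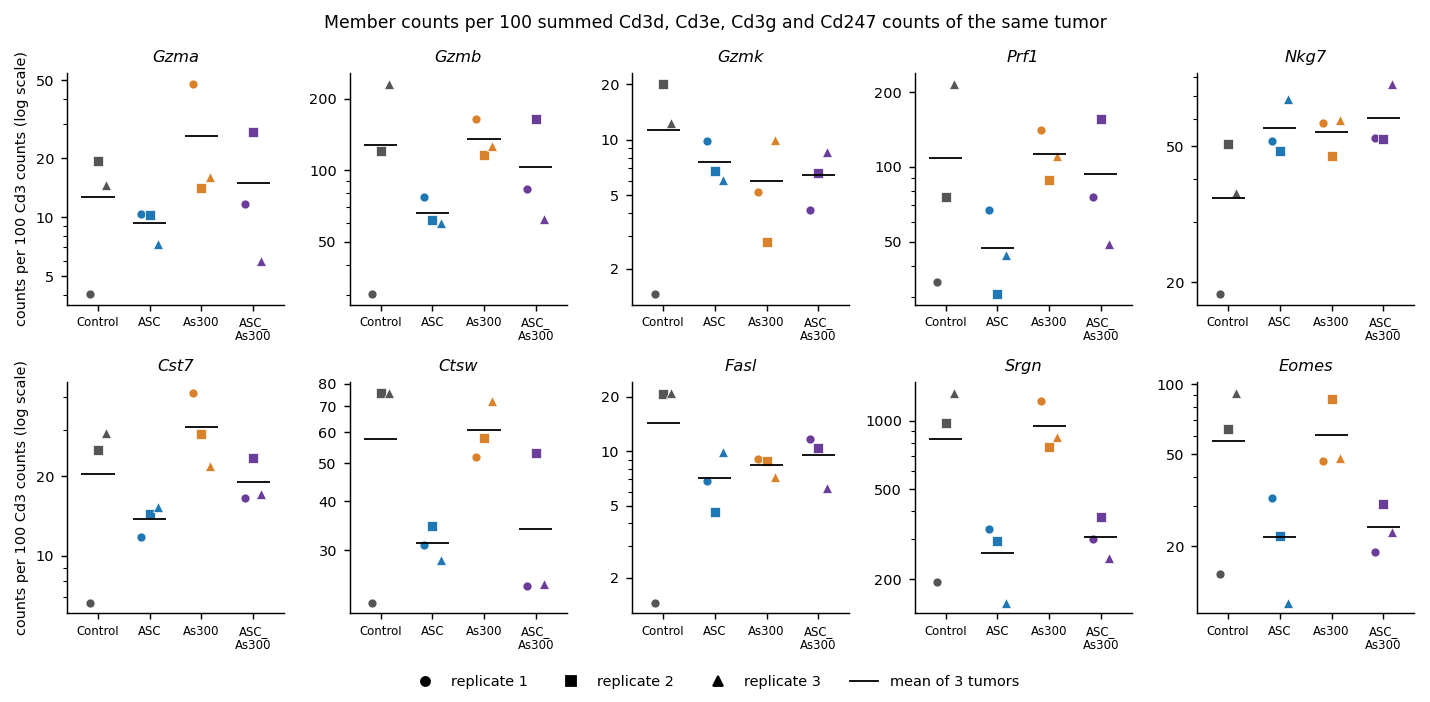
Counts of each of the 10 genes per 100 summed counts of Cd3d, Cd3e, Cd3g and Cd247 in each tumor, on a log axis, by group. For Gzmb the ASC tumors sit at 60.2 to 77.2 per 100 and the As300 tumors at 116 to 164. Control 1, which has the highest summed count of the divisor, sits lowest for Gzma, Gzmb, Gzmk, Nkg7, Cst7, Ctsw and Fasl.

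A second scaling set each gene against the T cell receptor complex instead of against all counts. The summed counts of Cd3d, Cd3e, Cd3g and Cd247, which code for its signalling chains, ran from 137 in Control 3 to 1237 in Control 1. Per 100 of these counts, Gzmb was at 30.2, 120 and 231 in Control, 77.2, 62.0 and 60.2 in ASC, 164, 116 and 126 in As300, and 83.9, 164 and 62.6 in ASC_As300. The Control tumors thus held both the lowest and the highest value of Gzmb. Nkg7 was at 18.4, 50.9 and 36.5 in Control, 51.9, 48.5 and 68.9 in ASC, 58.4, 46.7 and 59.6 in As300, and 53.0, 52.4 and 76.2 in ASC_As300. Apart from 2 Control tumors, Nkg7 thus lay between 46.7 and 76.2 per 100 counts with ASC or without.

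With the summed Cd3 counts as library size, the values of all genes shifted together. The median ASC effect over all genes tested was -1.94, with 88.2% of them called down and 0.178% up. On this scale the median of the 10 genes was -0.64, which is 1.31 above that of all genes. The sign of a value here is therefore set largely by the denominator, and being called down is no result about these genes. Of the 10, 9 had negative values, 2 were called down (Srgn at -1.64 and Eomes at -1.34), and Nkg7 was at 0.41 (adjusted p = 0.429, edgeR). Without Control 1, 6 of the 10 and 90% of all genes were called down.

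Gzmc, Gzmd, Gzme, Gzmf and Gzmg are further granzymes, coded near Gzmb on chromosome 14, and edgeR called none of them in any comparison. The summed level of these 5 was 96.0, 18.6 and 108 CPM in Control, 16.7, 13.9 and 7.39 CPM in ASC, 104, 75.2 and 88.8 CPM in As300, and 43.3, 137 and 12.4 CPM in ASC_As300. By this sum all 3 ASC tumors lay below all 3 Control and all 3 As300 tumors, narrowly so for ASC 1 against Control 2. Taken singly, Gzmf and Gzmg overlapped between ASC (1.84 to 3.85 and 1.33 to 3.19 CPM) and Control 2 (2.71 and 2.76 CPM). Of all genes, 9.01% did not overlap between ASC and Control with ASC lower. The sum in ASC_As300 spanned nearly the whole range, with the highest tumor of the 12 in ASC_As300 2, which was also the highest for Gzmb. In the same tumors Gzma, Gzmb and Gzmk together were at 6.68 to 9.11 CPM in Control, 14.7 to 18.3 CPM in ASC, 5.81 to 8.38 CPM in As300, and 15.5 to 28.3 CPM in ASC_As300.

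**Figure D5:**
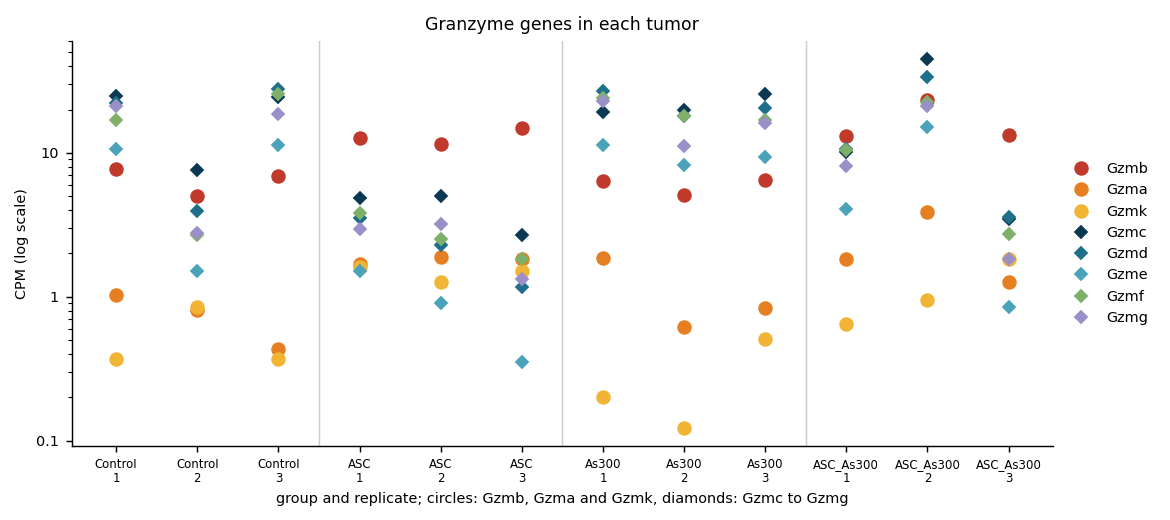
Level of Gzmb, Gzma and Gzmk (circles) and of Gzmc to Gzmg (diamonds) in each tumor, in CPM (TMM-scaled) on a log axis. Summed, Gzmc to Gzmg sit at 18.6 to 108 CPM in Control, 7.39 to 16.7 CPM in ASC, 75.2 to 104 CPM in As300 and 12.4 to 137 CPM in ASC_As300.

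For the ASC effect, Gzmc to Gzmg and Gzmm were lower (6 of 6, median -1.60), 5 of them at an unadjusted p below 0.05 (3.96% of all genes), and 0 were called by edgeR, nor was any of Gzmc to Gzmg by DESeq2. The values were -1.16 for Gzmc, -1.70 for Gzmd, -1.81 for Gzme, -1.59 for Gzmf, -1.60 for Gzmg and -0.36 for Gzmm. Without ASC_As300 2, Gzmc (-1.92, adjusted p = 0.0216, edgeR) and Gzmd (-2.29, adjusted p = 0.0478, edgeR) fell. In ASC against Control the median was -2.48 and edgeR again called 0, with Gzmd at -2.94, Gzme at -3.09 and Gzmf at -2.46. DESeq2 called these 3, where it called 77 of 14131 genes with an adjusted p down. In ASC_As300 against ASC the median of the 6 was 2.16. There 5 were higher at an unadjusted p below 0.05 (1.47% of all genes), and 0 were called by edgeR. In ASC_As300 against As300 the median was -0.50 and in ASC_As300 against Control -0.29, with 0 of 6 at an unadjusted p below 0.05 in either. Gzmc to Gzmg are paralogs, and how the counting divided reads among them was not tested.

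Among 9 tested genes of granule maturation and release, 6 were higher in the ASC effect, with a median of 0.07, and 1 rose. Of all 20818 genes tested, 10194 were higher and 1.36% rose. The listed gene that rose was Ctsc, cathepsin C, which activates progranzymes, at 0.68 ± 0.12 (adjusted p = 0.00721, edgeR). Its level was 178 to 294 CPM in tumors with ASC and 137 to 181 CPM without. Rab27a, the small GTPase that docks granules, was at 0.88 (adjusted p = 0.0963, edgeR), and Unc13d, which primes them, at 0.73 (adjusted p = 0.301, edgeR). Vamp8 passed only in ASC_As300 against Control, at 0.61 (adjusted p = 0.0347, edgeR), a call lost without Control 2, Control 3, As300 1, ASC_As300 2 or ASC_As300 3 (adjusted p = 0.0535 to 0.178, edgeR).

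Of 11 death ligands, receptors and their signalling proteins other than Fasl, 7 were higher, with a median of 0.08. The 1 that rose (1.36% of all genes) was Tnfsf10, which codes for TRAIL. Tnfsf10 was at 8.04 to 11.7 CPM in the 6 tumors with ASC and 1.45 to 4.92 CPM in the 6 without, with an ASC effect of 1.82 ± 0.25 (adjusted p = 0.00147, edgeR). Tnf was at 1.12 (adjusted p = 0.0765, edgeR). Fas, the receptor of Fas ligand, was at 0.07 ± 0.44 (adjusted p = 0.979, edgeR).

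Of 3 listed serpins that inhibit granzymes (Serpinb9, Serpinb9b and Serpinb6b), all were higher, with a median of 0.48. Serpinb9, which inhibits granzyme B, rose, at 0.65 ± 0.13 (adjusted p = 0.0153, edgeR). Serpinb9 was at 21.9 to 30.2 CPM with ASC and 13.1 to 23.4 CPM without, and it did not pass without Control 3, As300 3 or ASC_As300 2 (adjusted p = 0.0503 to 0.0525, edgeR). Of 7 tested lymphocyte transcription factors other than Eomes, 7 were higher, with a median of 0.10. The 1 that rose (1.36% of all genes) was Tox, a factor of chronically stimulated T cells, at 2.36 ± 0.39 (adjusted p = 0.0055, edgeR). Tox was at 1.88 to 4.93 CPM with ASC and 0.286 to 1.78 CPM without. Tbx21, which codes for T-bet, was at 1.18 ± 0.38 (adjusted p = 0.212, edgeR).

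The levels of the 10 genes can be set side by side only after division by exon length. As length-scaled values (counts per exon length, with the total over genes set to 1000000 in every tumor), their means over the 12 tumors were 54.3 ± 8.94 for Srgn, 18.9 ± 9.91 for Gzmb, 18.8 ± 14.2 for Nkg7, 8.81 ± 5.43 for Prf1 and 6.17 ± 2.52 for Ctsw (SD, n = 12). The lower genes were Cst7 at 5.49 ± 2.57, Gzma at 3.82 ± 2.42, Eomes at 2.17 ± 0.686, Gzmk at 1.58 ± 1.05 and Fasl at 1.34 ± 0.868. Srgn was above Gzmb in 12 of 12 tumors, while Gzmb was above Nkg7 in 8 and Gzmk above Fasl in 6, so these last 2 orders do not stand out from the spread. In the ASC group the mean of Nkg7, 30.9, was above that of Gzmb, 22.5, on this scale, and in the other groups that of Gzmb was the higher.

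Averaged as z scores, the 10 genes gave a value per tumor of 0.552 to 0.731 in ASC, 0.395 to 1.19 in ASC_As300, -0.991 to -0.0912 in Control and -1.12 to -0.648 in As300, with Control 1 the highest tumor without ASC. Among the genes outside the 10 most like this average over the 12 tumors, by Pearson's r of log2 CPM, were Serpina3g (0.991), Gbp5 (0.981), Tap1 (0.98) and Ifi47 (0.979). Within the 6 tumors without ASC these r were 0.892 to 0.989, and within the 6 with ASC 0.831 to 0.925. The points share their libraries and groups, and the values are a description.

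Gene by gene, the most similar gene by Pearson's r over the 12 tumors was Irf1 for Gzmb (0.949), Tap2 for Nkg7 (0.969), H2-T23 for Cst7 (0.966), Ifit1 for Gzmk (0.962) and Prex1 for Ctsw (0.944). It was Ccrl2 for Fasl (0.927), Snx20 for Gzma (0.901), AC119228.1 for Srgn (0.938) and 9530018H14Rik for Eomes (0.857). By this measure Prf1 was the only one whose nearest gene was another of the 10, Gzmb, at 0.919 over the 12 tumors, 0.89 within the 6 with ASC and 0.984 within the 6 without. By Spearman's rho the nearest gene stayed the same only for Gzmb and Srgn, and that of Prf1 was Gpr141 (0.951). Over the 45 pairs among the 10 genes the median r was 0.645 across the 12 tumors, 0.084 within the 6 with ASC and 0.283 within the 6 without. Single pairs ran from -0.885 to 0.89 within the 6 with ASC and from -0.7 to 0.984 within the 6 without. Why the medians were lower within these sets of tumors was not tested.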

How the data were processed

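RNA was sequenced from 12 tumors, 3 in each of 4 groups, as stranded paired-end mRNA libraries. The authors deposited raw counts per Ensembl gene. Per the labels, the tools named were cutadapt 1.1.0, HISAT2 2.0, StringTie 1.3.4, DESeq2 and edgeR. The genome build, annotation, counting step and its use of strand are not given in the sources used here. Counts of 4 occurred in more genes than counts of 3 or 5 (1137 to 1298 against at most 795), so a count may not be 1 read pair.

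Symbols, coordinates and exon lengths were taken from GENCODE M21 (GRCm38) by gene ID. Genes were kept by edgeR's filterByExpr and tested with edgeR 4.0.16 in R 4.3.3 (TMM, quasi-likelihood F test, 1 mean per group over all 12 tumors, Benjamini-Hochberg adjustment over all genes tested). A gene was called at an adjusted p below 0.05 and a fold change of at least 1.5, the study's thresholds. Intervals are 95% and unadjusted. Fits were also made with the summed Cd3 counts as library size and with DESeq2 1.42.0, whose independent filtering left 2 of the 10 genes without an adjusted p in ASC against Control and 1 in the iAs effect. Library size ranged from 39157647 to 55168642 counts. The code was tested on simulated data. Per the protocols each sample is 1 mouse, so p-values rest on the spread between mice.

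The 10 genes and the gene lists were chosen with earlier results of these data known. The motif letters were chosen after the promoter sequences were seen. Rab27a, Unc13d, Tnf, Fas, Tbx21 and the single values of Gzmc to Gzmm were named after their values were seen. Otherwise the text gives each of the 10 genes for the ASC effect, of the pathway lists each gene called in any comparison, and for the other comparisons the genes of largest change. The most similar genes were the 5 of highest Pearson's r, of which 1 is not reported here. Alternatives were other tools, scalings, filters, a replicate block, division of counts by 4 and leaving out each tumor.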

Additional observations from a re-analysis of the deposited data

How the results depend on the processing

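The number of the 10 genes called for the ASC effect was 4, and 7 with DESeq2 (Gzmk, Prf1 and Ctsw added), which called 1.74% of all genes up against 1.36% by edgeR. It ranged from 3 to 6 when each tumor was left out in turn, with 6 without Control 1. With DESeq2 the counts were 3 in ASC against Control in place of 0, 5 in ASC_As300 against Control in place of 1, and 5 in ASC_As300 against As300 in place of 1. Requiring at least 10 counts in every tumor gave 1 in ASC against Control and 2 in ASC_As300 against As300, and fitting only the tumors compared gave 3 in the latter. Leaving out single tumors gave 0 to 1 in ASC against Control (Gzmb without ASC_As300 2, and Nkg7 without Control 1 or ASC 1), 0 to 3 in ASC_As300 against Control and 0 to 3 in ASC_As300 against As300. The iAs comparisons and the interaction stayed at 0 under every alternative run. Scaling by size factors, keeping all genes with a count, dropping the fold threshold and dividing counts by 4 left each of these counts within 1.5 times its value.

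Per Cd3 count, 2 genes were called, and 1 to 6 when single tumors were left out (6 without Control 1; 1 without Control 3, ASC 3 or As300 2). The per-Cd3 value of Gzmk, -0.22, turned positive without Control 2 (0.16) or As300 3 (0.08), within a range from -0.51 to 0.16.

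Replicate numbers were shared between groups, but of 18 same-numbered pairs 2 had deviations correlated above 0.1 (-0.124 to 0.172), and 3 of 12 tumors correlated best with their own number. Pairing by number was thus not seen, and with 3 tumors per group this check cannot exclude it. With the replicate block, 4 genes were called for the ASC effect, 1 in ASC_As300 against Control, 1 in ASC_As300 against As300 and 0 in ASC against Control.

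By Spearman's rho, the genes most like the average of the 10 were Serpina3g, Tap1, Nub1, Gbp2 and Ifi47. Depth limits Gzmk and Fasl most, at 6 and 14 counts in their lowest tumors.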
